A study of Mus musculus with 24 samples.

Results

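The genes described here mostly encode core proteins of the spliceosome and the SR proteins. They were chosen as the protein-coding genes whose symbol begins with Snrp, Sf3a, Sf3b, Prpf, Srsf, or Lsm followed by a digit. They numbered 58 of the 55416 genes counted, with 12 Snrp, 3 Sf3a, 6 Sf3b, 13 Prpf, 11 Srsf and 13 Lsm genes. Of the Lsm genes, 6 encode proteins outside the U6 ring of the spliceosome, among them Lsm11 and Lsm12. RNA had been sequenced from the gastrocnemius, a calf muscle of mostly fast fibres, of 24 mice of the strain labelled C56BL6J, which the study bought at 8 weeks of age. Each sex had 6 sham and 6 SMC mice. Those under SMC had lived for 8 weeks in a small mouse cage that restricted movement, and the sham mice were ambulatory. All were fasted for 4 hours before collection, and the study's methods state that mice were injected with ketamine and xylazine before tissues were taken. The labels name no transgene or drug in either group. The comparisons asked whether restricted movement altered the transcripts of these genes in either sex, and whether males and females differed.

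Introns are removed from pre-mRNA by the spliceosome, which is assembled on each intron from small nuclear ribonucleoproteins (snRNPs). Each snRNP holds a small nuclear RNA, a ring of Sm or LSm proteins, and proteins of its own. U1 recognises the 5′ splice site, U2 the branch point, and the U4/U6.U5 tri-snRNP brings the components of the catalytic centre. SR proteins bind exons and help or hinder this machinery, and so influence which exons are kept. Skeletal muscle is known for extensive alternative splicing of its sarcomere genes.

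The choice by symbol did not use promoters, which are shown here for the members called. Sequences from RefSeq (mouse build GRCm38.p6) were matched by symbol for 49 of the 58 genes. In the 200 bases before the transcription start, median GC content was 60.0% in these genes and 56.5% in all 17491 promoters of the table. On either strand, the ETS core CCGGAAG was held by 24.5% of member promoters and 8.4% of all. The GC box GGGCGG was held by 57.1% of member promoters and 40.9% of all, the CCAAT box CCAAT by 38.8% and 32.0%, and the TATA box TATAAA by 8.2% and 10.1%. None of these 4 motifs contains another, and a match describes the letters only. The 200 bases are printed for the 4 members called between SMC and sham over both sexes and for Lsm11, called in females, 5′ to 3′ along the gene with matches on either strand in capitals.
Sf3b1, chr1:55027479-55027678, minus strand: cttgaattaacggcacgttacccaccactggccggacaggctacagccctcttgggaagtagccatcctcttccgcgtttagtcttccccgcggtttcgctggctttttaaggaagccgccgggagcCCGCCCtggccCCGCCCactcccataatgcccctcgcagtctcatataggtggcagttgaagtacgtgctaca
Srsf10, chr4:135855871-135856070, plus strand: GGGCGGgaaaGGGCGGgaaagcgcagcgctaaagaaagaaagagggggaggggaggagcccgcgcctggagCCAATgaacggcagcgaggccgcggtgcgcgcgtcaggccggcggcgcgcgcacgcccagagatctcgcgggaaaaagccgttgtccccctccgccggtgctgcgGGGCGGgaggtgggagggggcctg
Snrpe, chr1:133610281-133610480, minus strand: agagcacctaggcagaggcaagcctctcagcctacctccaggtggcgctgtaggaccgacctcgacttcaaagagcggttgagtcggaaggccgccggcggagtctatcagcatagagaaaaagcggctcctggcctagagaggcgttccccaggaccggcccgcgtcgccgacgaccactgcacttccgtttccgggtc
Prpf8, chr11:75486577-75486776, plus strand: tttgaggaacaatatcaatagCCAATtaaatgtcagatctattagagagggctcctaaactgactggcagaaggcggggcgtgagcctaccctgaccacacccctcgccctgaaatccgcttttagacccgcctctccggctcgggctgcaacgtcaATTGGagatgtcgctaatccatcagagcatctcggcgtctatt
Lsm11, chr11:45944936-45945135, minus strand: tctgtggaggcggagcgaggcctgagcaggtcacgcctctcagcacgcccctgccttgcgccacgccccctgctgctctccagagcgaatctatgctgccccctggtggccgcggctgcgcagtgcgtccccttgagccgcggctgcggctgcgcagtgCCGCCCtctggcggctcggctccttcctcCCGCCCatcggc
GC boxes stood in the promoters of Sf3b1, Srsf10 and Lsm11, and CCAAT boxes in those of Srsf10 and Prpf8. The promoter of Snrpe held none of the 4 motifs, and no ETS core was present in these 5.

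Levels are given as CPM, read counts scaled to a common library total, after TMM, a trimmed mean method that centres the typical gene on no change. Libraries held 23026627 to 36880413 counts. The 10 skeletal muscle markers were all measured, and summed to 85178 to 188323 CPM. In 2 sham libraries, male 4 and female 7, the mean log2 CPM of slow fibre genes was 1.42 and 1.22, against 5.09 or more in the other 22, so results that rest on them are also given without both. TMM factors ran from 0.854 to 1.32 in sham and from 0.904 to 1.01 in SMC libraries. With library size alone, the median log2 fold change of all genes, SMC against sham over both sexes, moved from -0.01 to -0.14, and members are therefore also read relative to that median.

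Levels differed far more between members than between groups. Of the 58 genes, 57 passed the filter on low counts. Srsf12, an SR protein gene, had 10 counts in all, spread over 6 libraries, and was not tested. Members were compared with each other as RPKM, the CPM divided by the length of the gene model in kilobases, which ranged from 0.683 to 35.5 with a median of 3.68. Over the 24 mice, the coefficient of variation of a member's CPM ran from 6.38% (Srsf4) to 37.0% (Lsm5), with a median of 10.8%.

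The highest RPKM of each family was 23.8 for Snrpb, 8.71 for Sf3a2, 10.6 for Sf3b2, 29.7 for Prpf8, 22.03 for Srsf5 and 35.5 for Lsm12. The Sm proteins enter each ring in equal numbers, but their transcripts did not have equal RPKM, from 1.48 for Snrpd1 and 2.10 for Snrpg to 23.8 for Snrpb. The gene model joins all annotated exons of a gene and can be longer than the transcript present, so RPKM compares genes only roughly. Snrpn encodes a paralogue of the SmB protein that is best known from brain and heart, and its RPKM was 10.1. Reads of Snrpn are uncertain, since its gene model shares 27.3% of its bases with Gm38393 on the same strand. In the LSm2-8 ring that binds U6 RNA, RPKM ran from 0.683 for Lsm5 and 0.684 for Lsm8 to 15.7 for Lsm4.

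**Figure D1:**
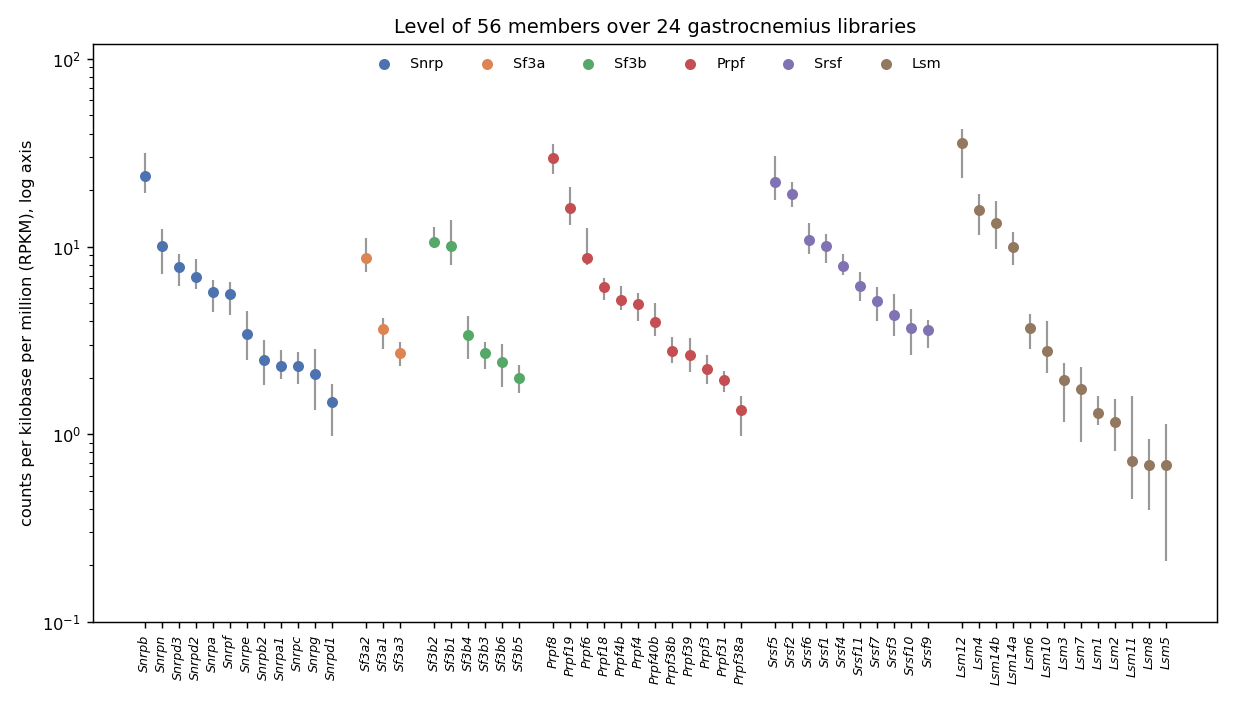
Mean level of 56 tested members over 24 libraries, as RPKM (CPM per kilobase of gene model) on a log axis, grouped by family, with points as means and lines from the lowest to the highest library. Lsm12 (35.5), Prpf8 (29.7) and Snrpb (23.8) stand highest, and Lsm5, Lsm8 and Lsm11 (0.722) lowest.

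Over both sexes, 4 of the 57 tested members changed with SMC at a false discovery rate (FDR) under 0.05, against 2.36% of all 16408 genes tested. Sf3b1, Srsf10 and Snrpe fell, and Prpf8 rose. The log2 fold change was below 0 for 43 members, with a median of -0.06, where 52.4% of all genes were below 0 with a median of -0.01. At an unadjusted p under 0.05, 19 members were lower, where 9.65% of all genes were, and 4 were higher, where 7.9% were. The median standard error (SE) of the log2 fold change was 0.0617 for members and 0.106 for all genes. It was 0.0871 and 0.15 in males, and 0.0873 and 0.15 in females. Members could thus pass a threshold at smaller changes than the typical gene, which limits every such comparison of shares here. Relative to the median of all genes, the members' median was -0.05 both with TMM and with library size alone. DESeq2 called 7 members (4.72% of all genes), adding Lsm11, Prpf39 and Srsf6. Without both sham libraries low in slow fibre genes, 41 members were below 0 and 6 were called, while the calls over all genes went from 388 to 526. The members' log2 fold changes were below 0 in both sexes for 30 genes and above 0 in both for 10. Of all genes, 50.9% were below 0 in males and 52.4% in females. The share of all genes below 0 in both sexes was not computed, so these counts have no background beside them. In bulk tissue, fewer cells of a type and less RNA per cell cannot be told apart.

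Sf3b1 encodes the largest subunit of SF3B, the U2 snRNP subcomplex that holds the branch point. In males Sf3b1 spanned 102 to 157 CPM in sham mice around a median of 125, and 90.6 to 103 in SMC mice around 95.2. In females Sf3b1 spanned 114 to 158 CPM in sham mice around a median of 126, and 95.5 to 116 in SMC mice around 105. SMC mice stood below sham mice apart from a small overlap in each sex, and the highest sham value of each sex was that of the library low in slow fibre genes. Sf3b1 fell by 0.35 on the log2 scale over both sexes (SE 0.0666, FDR 0.00816), a ratio of 0.783. Taken alone, the log2 fold change was -0.39 among males (FDR 0.113) and -0.32 among females (FDR 0.123), and DESeq2 called it in males (FDR 0.0173). Without both libraries low in slow fibre genes it was -0.29 over both sexes (FDR 0.0104), and the call held in each of the 24 fits that left out 1 mouse.

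The other SF3B subunits, Sf3b2 to Sf3b6, had log2 fold changes from -0.05 to 0.01 over both sexes, none called. In males Sf3b2 spanned 67.0 to 86.6 CPM in sham mice around a median of 71.3, and 67.1 to 77.4 in SMC mice around 70.1. In females Sf3b2 spanned 69.5 to 82.6 CPM in sham mice around a median of 70.0, and 67.9 to 75.8 in SMC mice around 71.7, and the groups overlapped in both sexes. The SF3A genes, whose proteins join SF3B in the mature U2 snRNP, were at 0.09 (Sf3a1), 0.03 (Sf3a2) and -0.04 (Sf3a3). For Sf3a1, median CPM was 22.05 for sham males, 23.1 for SMC males, 22.02 for sham females and 23.2 for SMC females, with all mice within 17.4 to 25.5. For Sf3a2, median CPM was 22.4 for sham males, 23.02 for SMC males, 22.04 for sham females and 22.9 for SMC females, with all mice within 19.4 to 29.6, and 16.1% of its model overlaps Plekhj1 on the other strand. The SF3A groups overlapped in each sex. With library size alone all 3 SF3A genes were below 0 over both sexes. The signs of Sf3a1 and Sf3a2 therefore rest on the scaling, while Sf3a3 was below 0 either way. Sf3a1 was then at -0.052, still above the median of all genes at -0.14.

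Genes of the Sm ring leaned lower, with 7 of 8 below 0 over both sexes and 1 called, where 52.4% and 2.36% of all genes were. Snrpe encodes SmE. In females Snrpe spanned 4.81 to 5.92 CPM in sham mice around a median of 5.22, and 3.41 to 4.03 in SMC mice around 3.80, so that the groups did not overlap. In males Snrpe spanned 4.0 to 6.25 CPM in sham mice around a median of 4.97, and 3.73 to 5.60 in SMC mice around 4.80, with wide overlap. Snrpe fell by 0.30 over both sexes (SE 0.0787, FDR 0.0441), from log2 fold changes of -0.49 for females (FDR 0.0511) and -0.11 for males (FDR 0.785). This call lay close to the threshold, and held in 8 of 24 fits without 1 mouse, those without male sham 4, 5 or 6, female sham 7, 8 or 9, male SMC 15 or female SMC 21. It also held with both libraries low in slow fibre genes left out (FDR 0.0331), when the female value was called as well (-0.48, FDR 0.0472).

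Snrpg encodes SmG of the same ring. In males Snrpg spanned 3.17 to 4.48 CPM in sham mice around a median of 3.73, and 2.22 to 3.66 in SMC mice around 2.84. In females Snrpg spanned 2.90 to 4.43 CPM in sham mice around a median of 3.44, and 2.13 to 3.91 in SMC mice around 3.02, and the groups of each sex overlapped. Its male log2 fold change of -0.37 had an unadjusted p of 0.0214 and an FDR of 0.353. For Snrpb, the gene of SmB, median CPM was 48.7 for sham males, 46.2 for SMC males, 47.8 for sham females and 42.7 for SMC females, with all mice within 37.9 to 62.2. Its log2 fold change was -0.09 for males and -0.20 for females (FDR 0.723 and 0.280), and -0.12 for females without female sham 7, the highest mouse. For its paralogue Snrpn, median CPM was 23.1 for sham males, 22.5 for SMC males, 22.2 for sham females and 20.5 for SMC females, with all mice within 15.5 to 26.9, and the log2 fold change was -0.04 for males and -0.04 for females. Prpf39 is a U1-associated protein. In males Prpf39 spanned 27.8 to 39.1 CPM in sham mice around a median of 35.7, and 25.8 to 32.2 in SMC mice around 29.4. In females Prpf39 spanned 28.7 to 36.2 CPM in sham mice around a median of 33.7, and 27.2 to 32.3 in SMC mice around 28.9, with overlap in each sex. Its log2 fold change of -0.21 over both sexes missed the threshold in edgeR (FDR 0.0507) and passed it in DESeq2 (FDR 0.0195) and in edgeR without both libraries low in slow fibre genes (FDR 0.0343). On 5.0% of its model Prpf39 overlaps Fkbp3 on the other strand, and whether the reads were counted by strand is not given in the sources used here.

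Tri-snRNP genes were mostly above 0. Of Prpf3, Prpf4, Prpf6, Prpf8 and Prpf31, 4 of 5 had log2 fold changes above 0 in each sex and over both, and 1 was called. Of all genes, 50.9% were below 0 in males and 52.4% in females. Over both sexes 52.4% were below 0 and 2.36% were called. With library size alone, however, 4 of these 5 genes were below 0 over both sexes, while 4 of 5 stayed above the median of all genes. Prpf8 forms the core around the catalytic RNA. In males Prpf8 spanned 189.6 to 204 CPM in sham mice around a median of 198, and 209 to 248 in SMC mice around 229. All SMC males stood above all sham males, which held for no other of the 57 members in this direction and for 0.591% of all genes. In females Prpf8 spanned 181 to 242 CPM in sham mice around a median of 215, and 224 to 261 in SMC mice around 243, with overlap. Prpf8 rose by 0.19 over both sexes (SE 0.0473, FDR 0.0334), a ratio of 1.14, from 0.21 for males (FDR 0.255) and 0.17 for females (FDR 0.253). With library size alone it was 0.07 (FDR 0.365), which is 0.21 above the median of all genes, against 0.20 under TMM. The call was lost without any 1 of male sham 1 or 2, female sham 10 or 11, male SMC 17 or 18, or female SMC 19, 22 or 23, and held without both libraries low in slow fibre genes (FDR 0.0228). Over both sexes Prpf4, Prpf31, Prpf3 and Prpf6 were at 0.10, 0.06, 0.04 and -0.08.

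The Prpf genes that act in activation and the splicing steps, Prpf4b, Prpf38a, Prpf38b, Prpf18 and Prpf19, were all below 0 over both sexes under TMM, from -0.12 to -0.06. Of all genes, 52.4% were below 0. None of the 5 was called, where 2.36% of all genes were. Within each sex 4 of 5 were below 0, where 50.9% of all genes were in males and 52.4% in females. For Prpf38b, median CPM was 19.2 for sham males, 18.9 for SMC males, 20.8 for sham females and 18.7 for SMC females, with all mice within 16.6 to 22.9. Its female log2 fold change was -0.18 (unadjusted p 0.0145, FDR 0.247). Prpf19, the ubiquitin ligase of the Prp19 complex, had log2 fold changes of -0.20 for males (FDR 0.323) and 0.03 for females (FDR 0.915).

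**Figure D2:**
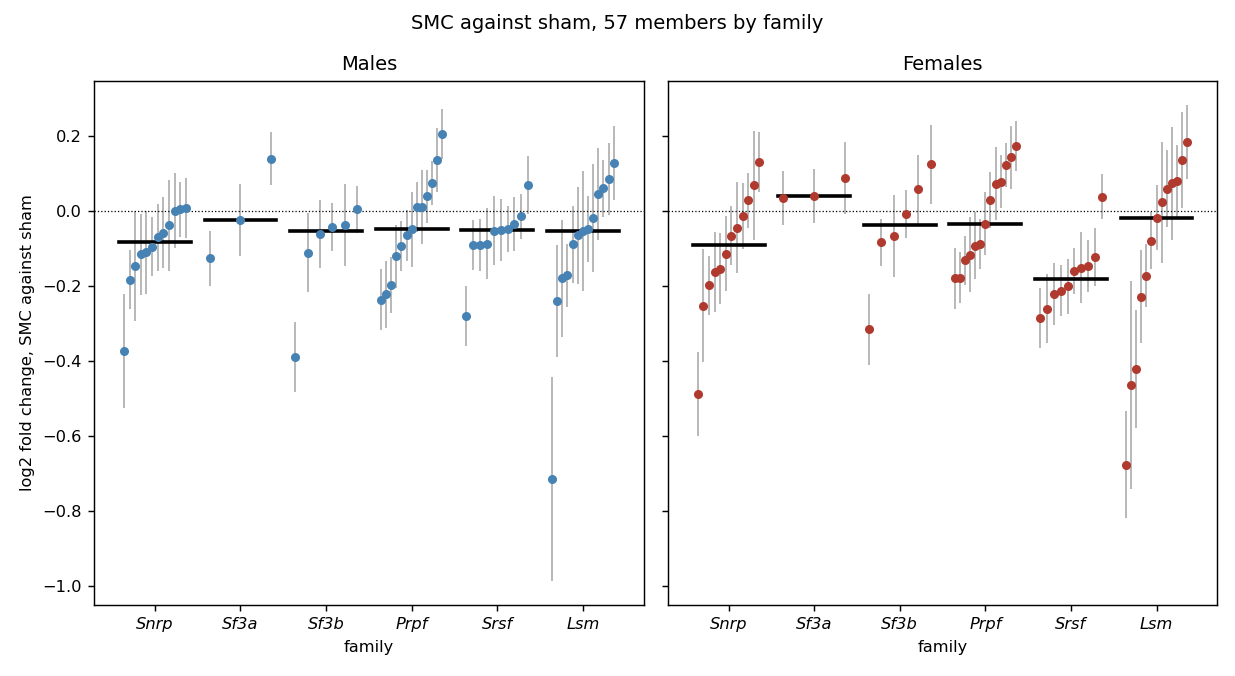
Log2 fold change, SMC against sham, of the 57 tested members by family, in males and in females, with 1 point per gene, standard errors as grey lines and the family median as a bar. The Srsf median is -0.05 in males and -0.18 in females, and the lowest points are Lsm5 in males (-0.71) and Lsm11 in females (-0.68).

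SR protein genes had the lowest family median in females, -0.18, with 9 of 10 below 0, where 52.4% of all genes were. At an unadjusted p under 0.05, 7 of 10 were lower, where 7.47% of all genes were, and none of the 10 passed the FDR in edgeR (1 did in DESeq2). Summed over the family, sham females had 423 to 476 CPM and SMC females 369 to 416, without overlap. Sham males had 385 to 449 CPM and SMC males 373 to 421, with overlap. Separation was not particular to this family. The Sf3b sum did not overlap in males, at 227 to 301 CPM in sham and 214 to 223 in SMC. Much of this sum was Sf3b1, which alone averaged 115 CPM over the 24 mice. As a mean log2 CPM, in which each gene weighs the same, Sf3b overlapped in males. It was 4.291 to 4.606 in sham and 4.277 to 4.446 in SMC. The mean log2 CPM of all tested members did not overlap in females, at 4.057 to 4.155 in sham and 3.984 to 4.049 in SMC. The remaining family sums overlapped between sham and SMC. In males 9 of 10 SR genes were below 0 as well, where 50.9% of all genes were, with a median of -0.05 and 1 of 10 at an unadjusted p under 0.05. With library size alone 10 of 10 were below 0 in each sex, and 9 of 10 below the median of all genes. Without both libraries low in slow fibre genes, 9 of 10 were below 0 in females and 7 of 10 in males. In females 5 of 6 tendon markers were also lower at an unadjusted p under 0.05, with a median of -0.87 and a sum of 204 to 811 CPM in sham and 130 to 402 in SMC. All 5 fibroblast markers were lower there too, 2 at an unadjusted p under 0.05, with a median of -0.32 and a sum of 435 to 1351 CPM in sham and 528 to 745 in SMC. No marker of either list was at 0, and their part in the SR protein values was not tested. Adipocyte markers (6 of 6, median 0.73) and slow fibre genes (10 of 10, median 0.61) were higher in SMC females, with 0 at an unadjusted p under 0.05.

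Srsf10 encodes an SR protein that can repress splicing once dephosphorylated. In females Srsf10 spanned 26.7 to 31.7 CPM in sham mice around a median of 28.3, and 20.7 to 26.1 in SMC mice around 23.3. In males Srsf10 spanned 24.1 to 32.7 CPM in sham mice around a median of 27.3, and 18.6 to 24.9 in SMC mice around 23.8. All SMC females stood below all sham females, and the male groups overlapped slightly. Srsf10 fell by 0.28 over both sexes (SE 0.0562, FDR 0.0108), a ratio of 0.822, from -0.28 for males (FDR 0.186) and -0.29 for females (FDR 0.101). The call held in all 24 fits without 1 mouse and without both libraries low in slow fibre genes (FDR 0.00922).

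Srsf3 is a small SR protein that also takes part in mRNA export. In females Srsf3 spanned 35.2 to 44.0 CPM in sham mice around a median of 36.5, and 26.9 to 34.7 in SMC mice around 32.0. With Srsf10 and Snrpe it made 3 of 57 members whose SMC females all stood below the sham females, where 0.634% of all genes did. In males Srsf3 spanned 31.3 to 39.0 CPM in sham mice around a median of 34.6, and 26.3 to 37.8 in SMC mice around 35.5, and the log2 fold changes were -0.26 for females (FDR 0.204) and -0.05 for males (FDR 0.892). For Srsf6, an SR protein that binds exonic enhancers, median CPM was 52.0 for sham males, 48.8 for SMC males, 56.8 for sham females and 50.5 for SMC females, with all mice within 43.7 to 64.1. Over both sexes its log2 fold change was -0.15, called by DESeq2 (FDR 0.0384) and not by edgeR (FDR 0.0900), which called it at -0.17 without both libraries low in slow fibre genes (FDR 0.0481). Srsf5 had the highest RPKM of the SR genes. In males Srsf5 spanned 74.3 to 122 CPM in sham mice around a median of 86.1, and 78.6 to 90.1 in SMC mice around 84.1, and the highest sham mouse was male sham 4. In females Srsf5 spanned 84.2 to 98.2 CPM in sham mice around a median of 95.3, and 70.8 to 97.0 in SMC mice around 83.6. Its log2 fold change was -0.09 for males, 0.01 without male sham 4, and -0.15 for females (FDR 0.551). Srsf1 and Srsf7, which bind exonic enhancers, were at -0.22 and -0.20 in females, and Srsf4, at 0.04, was the single SR gene above 0 there under TMM.

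Of the LSm2-8 ring, 6 of 7 genes were below 0 over both sexes, where 52.4% of all genes were, and 0 were called in edgeR or DESeq2. At an unadjusted p under 0.05, 3 of 7 were lower, where 9.65% of all genes were. Lsm5 had the lowest male log2 fold change of any member, -0.71 (unadjusted p 0.0150, FDR 0.321). In males Lsm5 spanned 0.455 to 0.877 CPM in sham mice around a median of 0.751, and 0.167 to 0.895 in SMC mice around 0.382. In females Lsm5 spanned 0.439 to 0.820 CPM in sham mice around a median of 0.548, and 0.281 to 0.543 in SMC mice around 0.435. The highest SMC male, male SMC 16, stood above all sham males, and without it the log2 fold change was -1.04. Lsm12 is an LSm protein outside the rings. In males Lsm12 spanned 68.0 to 88.8 CPM in sham mice around a median of 81.7, and 77.8 to 95.7 in SMC mice around 89.0. In females Lsm12 spanned 55.6 to 98.8 CPM in sham mice around a median of 83.8, and 82.2 to 101 in SMC mice around 91.8, and the groups overlapped in both sexes. Its log2 fold changes of 0.13 for males and 0.19 for females did not pass (FDR 0.694 and 0.454), and without female sham 8, the lowest mouse, the female value was 0.10.

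Among males alone 0 members and 0 (0%) of all genes passed the FDR in edgeR, and DESeq2 called 1 member, Sf3b1, and 0.654% of all genes. At an unadjusted p under 0.05, 8 members were lower and 1 higher, where 5.59% and 5.41% of all genes were. Among females alone 1 member passed, against 0.341% of all genes, and DESeq2 called 3, against 1.64%. At an unadjusted p under 0.05, 14 were lower and 2 higher, where 7.47% and 5.02% of all genes were. The member that passed was Lsm11, whose protein sits with Lsm10 in the U7 snRNP, which processes the ends of histone pre-mRNA and takes no part in intron removal. In females Lsm11 spanned 4.63 to 10.3 CPM in sham mice around a median of 6.40, and 3.71 to 4.65 in SMC mice around 4.17. In males Lsm11 spanned 3.18 to 4.43 CPM in sham mice around a median of 4.11, and 2.93 to 4.36 in SMC mice around 3.95. Sham females stood above all males and above SMC females, apart from an overlap between the lowest sham and the highest SMC female. Lsm11 fell by 0.68 in females (SE 0.142, FDR 0.0447), a ratio of 0.626, and was at -0.02 for males (FDR 0.978). Without female sham 7, the highest mouse, the female value was -0.51 and not called, and the call held in 7 of 24 fits without 1 mouse, those without male sham 1, 3 or 4, female sham 9 or 10, or male SMC 14 or 16. With both libraries low in slow fibre genes left out it was -0.51 and called (FDR 0.0347). Its U7 partner Lsm10 was at 0.07 for females and -0.24 for males, neither called.

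**Figure D3:**
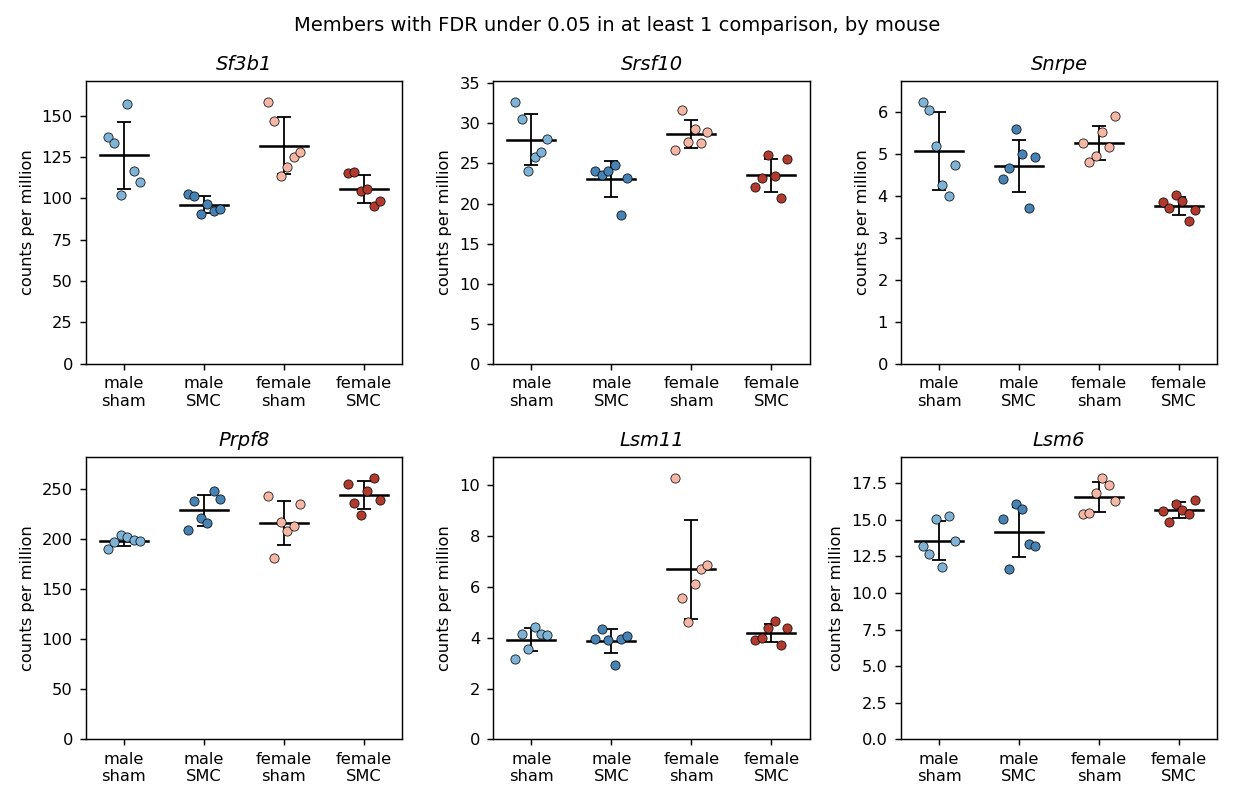
CPM of the members with an FDR under 0.05 in at least 1 comparison, 1 point per mouse and 6 mice per group, with the mean as a bar and the SD as whiskers. SMC females lie below all sham females for Srsf10 and Snrpe, SMC males above all sham males for Prpf8, and the Lsm11 value of female sham 7 (10.3) stands highest in its panel.

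The SMC response of a member was not shown to differ between males and females. In the test of male minus female response, 0 members and 0 (0%) of all genes passed in edgeR, and DESeq2 called 0 members and 0.00611% of all genes. At an unadjusted p under 0.05 there were 3 members, where 5.13% of all genes were. They were Lsm11 with a difference of 0.66 (95% interval 0.24 to 1.07, FDR 0.926), Snrpe with 0.38 (0.05 to 0.70, FDR 0.926) and Prpf19 with -0.23 (FDR 0.955). For 9 of 10 SR genes the difference was above 0, where 51.6% of all genes were, but the interval of each included 0. It was 0.21 for Srsf3 (-0.06 to 0.48) and 0.01 for Srsf10 (-0.23 to 0.24).

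Between males and females over both housings, 2 of 57 members differed, a lower share than the 4.93% of all genes. DESeq2 called 3, also a lower share than the 6.74% of all genes. Below 0 were 33 members, where 51% of all genes were. Both Lsm11 and Lsm6 were lower in males on this average. For Lsm11, median CPM was 4.11 for sham males, 3.95 for SMC males, 6.40 for sham females and 4.17 for SMC females. The SMC groups overlapped, at 2.93 to 4.36 CPM in males and 3.71 to 4.65 in females. The difference among SMC mice alone was not tested, and the same sham females enter the female fall of Lsm11. Lsm6 belongs to the U6 ring and to the cytoplasmic ring for mRNA decay. In males Lsm6 spanned 11.8 to 15.2 CPM in sham mice around a median of 13.4, and 11.6 to 16.1 in SMC mice around 14.2. In females Lsm6 spanned 15.4 to 17.9 CPM in sham mice around a median of 16.6, and 14.8 to 16.3 in SMC mice around 15.6. The log2 difference, males minus females, was -0.21 for Lsm6 (SE 0.0541, FDR 0.0201) and -0.44 for Lsm11 (SE 0.101, FDR 0.0113), and both calls held in all 24 fits without 1 mouse. Markers of some other cells were also lower in males over both housings, at a median of -1.06 for adipocytes (5 of 6 at an unadjusted p under 0.05), -0.40 for Schwann cells (3 of 6) and -0.46 for tendon cells (2 of 6). Slow fibre genes were lower too, 10 of 10 at a median of -0.58 (1 at an unadjusted p under 0.05). Red blood cell markers were higher, 5 of 5 at a median of 0.33, as were 4 of 5 endothelial markers, at a median of 0.15. The part of these lists in the Lsm values was not tested. Summed adipocyte markers were 68.9 to 169 CPM in males and 71.2 to 289 in females, with none at 0. For Srsf11, a large SR-type protein, median CPM was 51.2 for sham males, 49.6 for SMC males, 58.3 for sham females and 51.5 for SMC females, with all mice within 43.3 to 61.5, and its difference of -0.13 was called by DESeq2 (FDR 0.0459) and not by edgeR (FDR 0.0951), which called it without both libraries low in slow fibre genes (FDR 0.0365).

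Among sham mice alone, 1 of 57 members passed, a share close to the 1.97% of all genes. DESeq2 called 2, a share close to the 3.51% of all genes. All sham males stood below all sham females for 2 of 57 members, where 0.524% of all genes did. These were Lsm11, at -0.77 (SE 0.142, FDR 0.00438), and Lsm6, at -0.28 (SE 0.0765, FDR 0.0518), which DESeq2 called (FDR 0.0249). Without both libraries low in slow fibre genes, Lsm11 was at -0.63 (FDR 0.00557). All 6 Schwann cell markers were lower in sham males, 4 at an unadjusted p under 0.05, with sums of 47.3 to 97.4 CPM in sham males and 65.2 to 180.5 in sham females. Of the tendon markers 5 of 6 were lower in sham males, 3 at an unadjusted p under 0.05, with a median of -0.82 and sums of 172 to 307 CPM in sham males and 204 to 811 in sham females. No marker of either list was at 0, and their part in the Lsm values was not tested. Slow fibre genes were lower in sham males for 7 of 10, at a median of -0.54. Red blood cell markers were higher there, 5 of 5 at a median of 0.57.

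**Figure D4:**
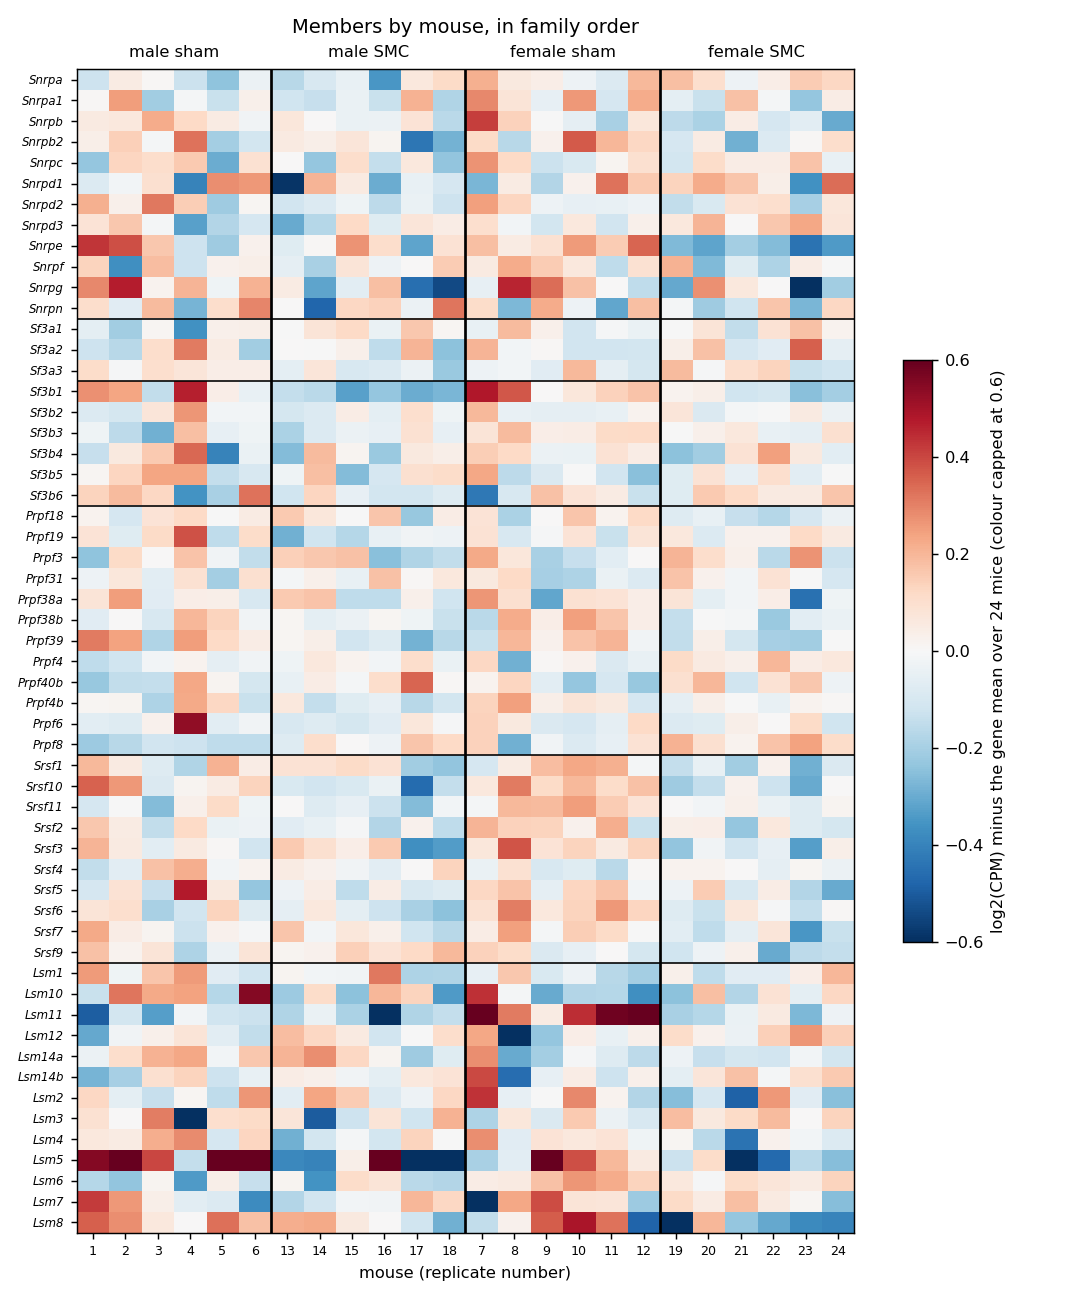
Log2 CPM of 56 tested members in each of the 24 mice minus the gene's own mean over all mice, as a colour capped at 0.6, with members in family order and mice by group. Srsf genes are below their means in most SMC females, whose family mean log2 CPM was 4.895 to 5.05 against 5.109 to 5.283 in sham females.

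Other splicing genes were read from 6 lists that hold no member, against 52.4% of all genes below 0 and 2.36% called over both sexes. Over both sexes, 19 of 29 other snRNP proteins were below 0 and 0 passed. Snrnp27, a tri-snRNP protein, rose by 0.27 in females (FDR 0.0415), but the highest log2 fold change of this list over both sexes was 0.108. The smallest male p belonged to the helicase gene Dhx15 at -0.15 (FDR 0.334). Of 26 Prp19 complex and step factors, 19 were below 0 and 0 passed, with the smallest p for Magoh in males (-0.37, FDR 0.201) and Cwc22 in females (-0.17, FDR 0.435), genes of the exon junction complex and its loading. Of 25 tested SR-related proteins and SR kinases, 16 were below 0 and 1 passed, as Srek1 fell by 0.25 (FDR 0.0263).

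Among hnRNP genes, whose proteins often oppose SR proteins, 22 of 26 were below 0 over both sexes, where 52.4% of all genes were, with a median of -0.07, and 3 passed, where 2.36% of all genes did. Hnrnpa0 fell by 0.26 (FDR 0.00763), Hnrnpf by 0.22 (FDR 0.0480) and Ptbp2 by 0.19 (FDR 0.0360). Hnrnpa0 also passed in females alone, at -0.33 (FDR 0.0447), where 0.341% of all genes did, and no hnRNP gene passed in males. Of 15 tested muscle splicing regulators, 5 were below 0 and 0 passed, and the smallest p was that of Rbpms in males (0.28, FDR 0.320) and Rbpms2 in females (0.47, FDR 0.148). Of 15 tested genes of snRNP assembly by the SMN complex, 12 were below 0 and 0 passed. Between males and females over both housings, Ppih (-0.39, FDR 0.0228), Ctnnbl1 (-0.32, FDR 0.00144) and Mbnl2 (-0.32, FDR 0.00144) were lower in males, and Pdcd7 of the minor spliceosome was higher (0.38, FDR 0.00141).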

How the data were processed

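Gastrocnemius RNA was depleted of ribosomal RNA and made into directional libraries. Per the submitters' processing notes, cutadapt 1.16, STAR 2.7.9a, featureCounts 1.6 and DESeq2 1.34.0 were used with GRCm39, and the annotation and strandedness of counting are not given in the sources used here. The authors deposited raw counts per Ensembl gene, 1 column per mouse, not normalized. Groups came from the labels' sex and treatment.

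Symbols (52083 of 55416 genes), biotypes and exon-union lengths came from GENCODE M21 by gene ID and promoters from RefSeq GRCm38.p6, not the build of the files. Of 61 symbols that met the rule, 3 pseudogenes were left out, and 1 member enters the counts but is not reported here by name. Members and lists were chosen with earlier results of these data known, and roles were assigned after values were seen.

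Genes kept by filterByExpr (16408) were scaled by TMM and fitted with 1 mean per group over all 24 libraries (edgeR 4.0.16, R 4.3.3, quasi-likelihood test, two-sided). FDR is the Benjamini-Hochberg value over all genes tested, with a threshold of 0.05. The common biological coefficient of variation was 0.206. Full values are given for members called by edgeR or DESeq2, those of smallest p or highest RPKM in each family, and Snrpb with Snrpn, and Srsf3, Prpf19, Lsm10 and others beside them were named after their values were seen. Alternatives were DESeq2 1.42.0, limma 3.58.1 (voomWithQualityWeights), RLE factors, 2 other filters, 1 sex at a time, a slow fibre covariate, each library left out, both libraries low in slow fibre genes left out, and library size alone (added after the scaling factors were seen). No pair of libraries within a group agreed within sampling noise (60 pairs, lowest chi-square over degrees of freedom 10.8). The code was tested on simulated data.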

Additional observations from a re-analysis of the deposited data

Results flagged for a closer look

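In 8 of 104 sets of 6 mice examined, 1 mouse stood apart from the other 5 by more than Dixon's 95% limit, where chance gives about 5.2. Among single genes, Lsm11 was 2.929 CPM in male SMC 16 (others 3.924 to 4.357), Srsf10 was 18.59 CPM in male SMC 17 (others 23.18 to 24.86), Sf3a2 was 26.51 CPM in female sham 7 (others 21.25 to 23.14) and Sf3b2 was 82.61 CPM in the same mouse (others 69.53 to 73.14). Among family means of log2 CPM, Prpf was 5.065 in male sham 4 (others 4.83 to 4.899), Snrp was 3.245 in female SMC 23 (others 3.325 to 3.37) and 3.422 in male SMC 15 (others 3.252 to 3.308), and Srsf was 4.895 in female SMC 23 (others 5.001 to 5.05). Male sham 4 and female sham 7 are the 2 libraries low in slow fibre genes. The averaged fall of Srsf10 was 0.26 without male SMC 17, and the Srsf median in females was -0.15 without female SMC 23. The causes were not tested.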

How the results depend on the processing

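The falls of Sf3b1 and Srsf10 over both sexes were called in every fit without 1 mouse. The fall of Snrpe and the rise of Prpf8 over both sexes, and the female fall of Lsm11, were not. RLE factors gave 37 genes called in females (56 with TMM). With library size alone the members' median was -0.19 in males, -0.22 in females and -0.19 over both sexes, 215 genes and 2 members were called in females, 1861 and 24 over both sexes, 1 member between males and females over both housings and 179 genes among sham mice, and Sf3a2 in females (-0.046) and Sf3a1 over both sexes (-0.052) reversed. DESeq2 called 107 genes and 1 member in males, 268 and 3 in females, 772 and 7 over both sexes, 1 gene for the sex difference in response, and 575 genes and 2 members between sham males and females. With voomWithQualityWeights it was 93 and 1 in males, 16 and 0 in females, 7 members over both sexes, 1420 genes and 6 members between males and females over both housings and 2 members among sham mice, and Sf3a2 (0.035) and Sf3b2 (0.0076) in males and Sf3b2 in females (0.015) reversed. With at least 10 counts in every sample, 2 members were called in females and 2 between sham males and females. With no filter, 0 members were called in females, 189 genes and 2 members over both sexes and 1 member between males and females over both housings, and Sf3b2 in females reversed (0.0055). In the 12 samples of that sex alone, females gave 14 genes and 0 members. Without both libraries low in slow fibre genes, 155 genes and 2 members were called in females, 1268 and 5 between males and females over both housings and 511 genes among sham mice, and Sf3a2 (0.034) and Srsf5 (0.0071) in males and Sf3b2 in females (0.038) reversed. With the slow fibre covariate 9 genes were called in males, 177 and 2 members in females, 728 genes over both sexes, 1527 between males and females over both housings, and 745 genes and 2 members among sham mice, and Sf3a2 in males (0.035) and Sf3b2 in females (0.041) reversed. The causes of these differences were not tested.

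Without 1 mouse at a time, the called genes ran from 0 to 78 in males, 0 to 147 in females (0 without female SMC 22, 147 without female sham 9), 236 to 501 over both sexes, 0 to 1 for the sex difference in response, 618 to 1086 between males and females over both housings and 187 to 487 among sham mice. Called members ran from 0 to 0 in males, 0 to 2 in females, 2 to 6 over both sexes, 2 to 4 between males and females over both housings and 1 to 2 among sham mice. Over both sexes it was 2 members without any of the 9 mice whose loss ended the call of Prpf8, and 6 without female sham 9. The members' median for the sex difference in response ran from -0.048 to 0.012. Values that changed sign were Sf3b2 (-0.021 to 0.038) and Snrpn (-0.10 to 0.0053) in females, and Sf3a2 (-0.083 to 0.034), Snrpn (-0.11 to 0.045) and Srsf5 (-0.14 to 0.0071) in males. No paired analysis was possible because the sample titles name no cage or pair. The study housed sham and SMC mice in pairs in some of its experiments, and whether these mice were is not known here. Members near 1 CPM or below, such as Lsm5, are limited by depth.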
